A study of Mus musculus with 11 samples.

Results

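The lysosome and cathepsin genes described here are 37 genes chosen by name for their place in the lysosome: membrane proteins, cathepsins and other peptidases, glycosidases, enzymes and carriers of lipids, subunits of the proton pump, and a channel with a pair of transcription factors. A gene entered if the array held a probe set annotated to its symbol alone, and it was read from the probe set with the highest mean over the arrays. Of the 37 genes, 36 met this rule, among 18193 genes so represented on the array. All 36 were also among the 14795 genes tested, which lay above the 40th percentile of an array (1.54 on the log2 scale) on at least 2 arrays. Cd63, the remaining gene, was not analysed here.

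The RNA came from CD8+ T cells of Pmel-1 transgenic mice, which carry a transgenic receptor for gp100, a protein of melanocytes and melanoma. Cells enriched as naive (CD44-) or as central memory (CD44+) were activated on antibodies to CD3 and CD28, met allogeneic feeder cells carrying the hgp100(25-33) peptide after a week, and had 2 weeks of culture in all with 10 cetus units of interleukin 2. The resulting effectors were left unstimulated or received CD3 and CD28 stimulation for a final 4 h. The memory-derived cells gave 3 unstimulated and 3 stimulated arrays, and the naive-derived cells gave 2 unstimulated and 3 stimulated arrays, from 3 independent experiments. Every group therefore carried the receptor transgene and had been activated before, and the arrays read whole cultures. In such bulk RNA, fewer cells of a type and less RNA per cell cannot be told apart. The labels do not say how many animals stood behind a culture.

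Lysosomes are acidic organelles that break down proteins, sugar chains and lipids delivered by endocytosis and autophagy. A proton pump of many subunits, the vacuolar ATPase, keeps them acidic, and heavily glycosylated proteins such as LAMP1 line their membrane. In cytotoxic T cells the lytic granules that hold perforin and granzymes are lysosome-related organelles, and cathepsin C, the product of Ctsc, trims granzymes to their active form. The factors TFEB and TFE3 bind an E-box sequence near the start of many lysosomal genes and can raise them together.

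All levels and differences below are on a log2 scale, where a difference of 1 is a 2-fold change, and a level is read for 1 probe set and compared with no other gene's. Errors of differences are standard errors (SE) of a linear model fitted with limma to all genes, and a gene passed when its p-value, adjusted by Benjamini-Hochberg over all 14795 genes, lay below 0.05. Markers of CD8 T cells were present: all 7 that could be read lay above the 1.54 level on every array, Cd8a at 7.81 to 9.66. They were not level across groups: 5 of the 7 fell on stimulation of memory-derived cells (median difference -0.55), beside 17.3% of all genes tested. In naive-derived cells, 1 of the 7 was higher without and 3 with stimulation, beside 10.9% and 1.69% of all genes. Cd8a was higher there by 1.04 without and 1.23 with stimulation. Of 15 markers of monocytes, macrophages and granulocytes, Mpeg1, C1qa, C1qc, Marco, S100a8 and S100a9 lay below that level on all 11 arrays, while Csf1r (2.30 to 2.83), Adgre1 (1.55 to 2.19) and Cd68 (2.96 to 5.37) lay above it on all 11. The summed level of the 15 was 22.8 to 24.03 in memory-derived unstimulated cells, 22.5 to 23.9 in memory-derived stimulated cells, 21.9 to 22.0 in naive-derived unstimulated cells and 19.9 to 22.2 in naive-derived stimulated cells. Of the 9 of these that could be tested, 7 passed in no comparison. By origin 2 of the 9 (22.2%) were lower without and with stimulation, beside 14.9% and 2.01% of all genes tested. Of the 9 differences, 5 were positive without and 3 with stimulation. Cd68, a lysosomal membrane protein of macrophages, was lower in naive-derived than in memory-derived cells, by -1.67 without and -1.30 with stimulation (adjusted p = 0.0018 and 0.0138), and so was Cd14 (-1.20 and -1.21), the other of the 9. The 3′ minus 5′ signal of actin (log10), a sign of RNA quality, was 0.263 to 0.351, 0.431 to 0.520, 0.462 to 0.478 and 0.581 to 0.782 in the same order of groups, so it overlapped between the groups in none of the 4 comparisons of stimulation or origin. The part of these markers and of RNA quality in the results below was not tested.

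The promoters of the 37 genes were read for the core of the site that TFEB and TFE3 bind. RefSeq promoters of build GRCm38.p6 (250 bases before to 50 after the start, 300 in all) were at hand for 31 of the 37 genes, and not for Ctsb, Ctsh, Ctsw, Asah1, Npc1 and Atp6v1h. The 6 letters CACGTG, which read the same on both strands, stood in 11 of these 31 genes: Lamp1, Ctsa, Ctsd, Ctsl, Lgmn, Glb1, Gla, Gaa, Atp6v0d1, Atp6v1a and Mcoln1. Over all 27025 genes with such a promoter the share was 8.09%, and over all 32851 promoters 7.15%. The longer TCACGTGA, which contains the shorter motif and is also its own reverse complement, stood in 6 of the 31 genes and in 1.12% of all genes (0.974% of promoters). Of another 18 lysosomal hydrolase genes with a promoter, 5 held the shorter and 1 the longer motif. The stretches around the motif are shown for 3 of the 4 genes with the motif that were lower both after stimulation of memory-derived cells and in naive-derived cells, and for Ctsl, which was higher in naive-derived cells. Capitals mark CACGTG or, where present, TCACGTGA, and each stretch runs 5′ to 3′ on the strand of the gene.
Ctsd, chr7:142387896-142387949, minus strand, the TCACGTGA 99 bases before the start (a CACGTG at 245 is not shown): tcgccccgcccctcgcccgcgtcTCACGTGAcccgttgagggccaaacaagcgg
Lamp1, chr8:13159076-13159160, plus strand, 4 motifs at 61, 45, 28 and 15 bases before the start: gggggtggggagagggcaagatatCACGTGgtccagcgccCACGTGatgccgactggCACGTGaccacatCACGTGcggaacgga
Atp6v0d1, chr8:105566061-105566091, minus strand, motif from 4 bases before the start: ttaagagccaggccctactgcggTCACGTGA
Ctsl, chr13:64370727-64370770, minus strand, motif 236 bases before the start: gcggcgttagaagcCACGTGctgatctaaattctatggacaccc
The shorter motif stood in 4 of the 12 genes with a promoter that fell on stimulation of memory-derived cells and in 7 of the 17 that did not pass there. Between unstimulated origins it stood in 5 of 11 genes lower in naive-derived cells, 1 of 3 higher and 5 of 16 that did not pass. The longer motif also stood in Gla, Atp6v1a and Mcoln1, which passed in neither comparison and are not shown. A match is a run of letters and not a measured binding site.

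The first comparison asked what the final 4 h stimulation changed in effectors grown from memory cells. Of the 36 genes, 14 fell and 1, Ctsz, rose, while 17.3% of all tested genes fell and 14.3% rose. The median difference was -0.33 over the 36 genes and 0.0025 over all genes, and 27 of the 36 differences were negative. The largest falls were those of Psap, Ctsd and Ctsw. Both directions occurred among the cathepsins, and most glycosidase and proton pump genes did not pass.

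**Figure D1:**
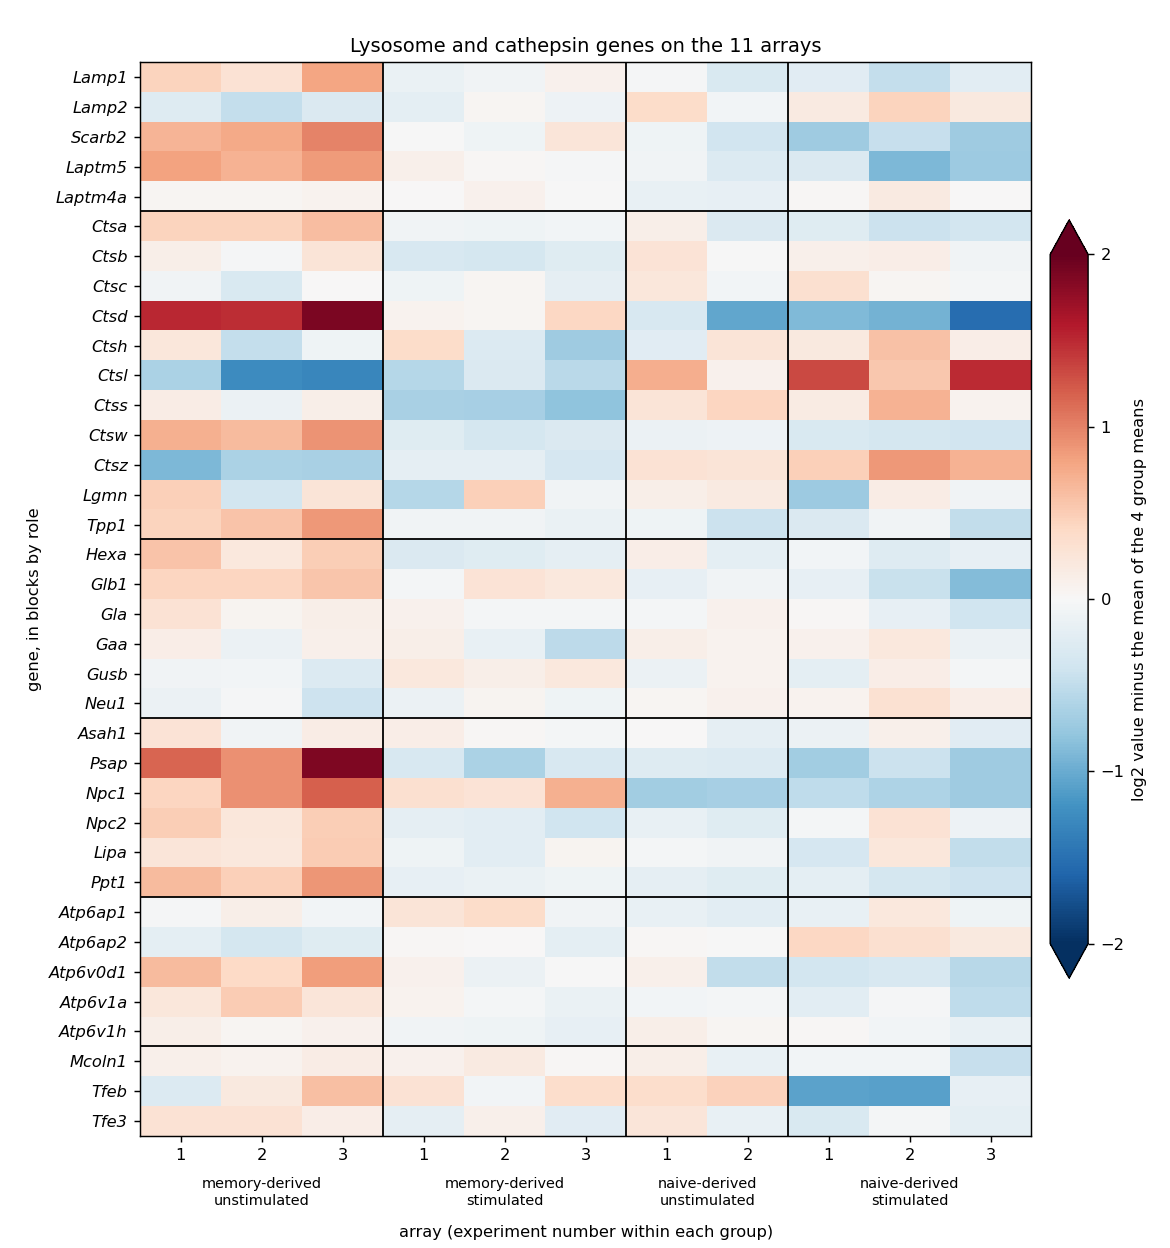
Log2 value of each of the 36 genes (rows, in blocks by role) on each of the 11 arrays (columns, by group and experiment number), shown as the difference from the mean of the gene's 4 group means. Red is above and blue below that mean. Ctsd and Psap stand out as high on the 3 memory-derived unstimulated arrays, and Ctsl and Ctsz as high on the naive-derived arrays.

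Among the membrane proteins, 3 of 5 fell. Scarb2, which encodes LIMP-2, the carrier that brings glucocerebrosidase to the lysosome, read 6.44, 6.51 and 6.74 on the unstimulated and 5.74, 5.66 and 5.996 on the stimulated arrays. All stimulated arrays were below all unstimulated ones, and the fall was -0.76 (SE 0.148, n = 3 and 3, adjusted p = 0.00311). Laptm5, a lysosomal membrane protein of blood cells that promotes T cell receptor turnover, dropped by 0.75 (SE 0.157), and its 4 further probe sets gave -1.15, -1.03, -0.46 and 0.23, the last 2 on dim probe sets and without passing. Lamp1, a main membrane glycoprotein and the surface sign of degranulation, fell by 0.54 (SE 0.155, adjusted p = 0.0208). Lamp2 differed by 0.26 and Laptm4a by -0.02, and neither passed.

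Among the cathepsins and other peptidases, 6 of 11 fell. Ctsd encodes cathepsin D, the main aspartic protease of the lysosome. It read 8.48, 8.44 and 8.84 without and 7.03, 7.01 and 7.38 with stimulation, groups that lay more than a unit apart. It fell 2.72-fold (-1.45, SE 0.23, adjusted p = 0.0011). Ctsw, a cathepsin found mainly in cytotoxic lymphocytes, read 8.56, 8.48 and 8.74 without and 7.60, 7.50 and 7.55 with stimulation. Its arrays were close within each group, and the fall was -1.04 (SE 0.112, adjusted p = 0.000166). Ctss, a cysteine protease best known for cutting the invariant chain of MHC class II, read 6.41, 6.16 and 6.38 without and 5.61, 5.60 and 5.46 with stimulation, and fell by 0.76 (SE 0.166). Tpp1, a tripeptidyl peptidase, fell by 0.72, Ctsa, a carboxypeptidase that protects beta-galactosidase and sialidase, by 0.58, and Ctsb, a cysteine endopeptidase, by 0.42. Ctsz, a carboxypeptidase, went the other way. It read 6.62, 6.89 and 6.88 without and 7.34, 7.35 and 7.19 with stimulation, and rose by 0.50 (SE 0.136, adjusted p = 0.0172). Ctsl, a cysteine endopeptidase, read 3.32, 2.71 and 2.66 without and 3.39, 3.67 and 3.43 with stimulation, a difference of 0.60 that did not pass (adjusted p = 0.123). Ctsc differed by 0.05 on the probe set used, and on a dimmer one by 0.66 (adjusted p = 0.0487 over all probe sets fitted). Ctsh and Lgmn lay at or near the 1.54 level on all arrays, between 0.52 and 1.88, so a change in them could hardly be read.

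Among the lipid genes, 3 of 6 fell and all 6 differences were negative. Psap encodes prosaposin, the precursor of the saposins that present sphingolipids to their hydrolases. It read 6.51, 6.25 and 7.21 without and 5.02, 4.72 and 5.02 with stimulation. The lowest unstimulated array was more than a unit above the highest stimulated one, and Psap fell 3.34-fold (-1.74, SE 0.216, adjusted p = 0.000319), with -1.36 on its other probe set. Ppt1, a thioesterase that takes palmitate off proteins, fell by 0.79 and Npc2, the soluble cholesterol carrier, by 0.66. Npc1, the membrane protein to which NPC2 hands cholesterol, read 3.76, 4.24 and 4.52 without and 3.65, 3.61 and 4.04 with stimulation, so its groups overlapped (-0.41, adjusted p = 0.127). Lipa, the acid lipase, differed by -0.40 (adjusted p = 0.117) on the probe set used. Its dimmer probe sets gave -0.56 (adjusted p = 0.0338 over all probe sets fitted) and -0.28 (adjusted p = 0.312). Asah1, acid ceramidase, differed by -0.08.

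Only Hexa, a subunit of beta-hexosaminidase, passed among the 6 glycosidases, at -0.66 (SE 0.138, adjusted p = 0.00458). The remaining ones, Glb1, Gla, Gaa, Gusb and Neu1, differed by -0.32 to 0.31. Of 5 proton pump genes, Atp6v0d1, a subunit of the membrane sector, fell by 0.64 (SE 0.171, adjusted p = 0.0157). Atp6v1a, the catalytic subunit, differed by -0.36 (adjusted p = 0.0856), Atp6v1h by -0.18, and the accessory subunits Atp6ap1 and Atp6ap2 by 0.17 and 0.21. Neither transcription factor passed: Tfeb differed by 0.02 and Tfe3 by -0.34 (adjusted p = 0.107). Mcoln1, the lysosomal calcium channel, differed by -0.01.

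Several arrays lay to one side of their group over the 36 genes: 29 were above their group mean on memory-derived unstimulated array 3 and 8 on array 2 of that group, 26 on naive-derived stimulated array 2 and 5 on array 3 of that group. Without memory-derived unstimulated array 3, 11 of the 14 falls passed. Lamp1 (-0.40, adjusted p = 0.068), Atp6v0d1 (-0.53, adjusted p = 0.0592) and Ctsb (-0.35, adjusted p = 0.0846) were then lost. Lamp1 and Ctsb were also lost without memory-derived stimulated array 1 (-0.50 and -0.41), and those 2 and Atp6v0d1 without stimulated array 2 (-0.53, -0.39 and -0.58). Ctsb was lost as well without stimulated array 3 (-0.45) or unstimulated array 1 (-0.42). The rise of Ctsz was lost without unstimulated array 1 (0.41) and without stimulated array 1 or 2 (0.47 in each case), and its adjusted p was 0.103 with each array centred on its hybridization controls. With experiments 1 and 2 alone, 7 genes fell and 0 rose. With the mean of a gene's probe sets Ppt1 was at -0.18 (adjusted p = 0.243), Ctsa at -0.39 (adjusted p = 0.0784) and Ctsb at -0.21 (adjusted p = 0.202), and none of these passed. The falls of Psap, Ctsd, Ctsw, Scarb2, Tpp1 and Hexa passed under each of the 19 alternatives tried.

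**Figure D2:**
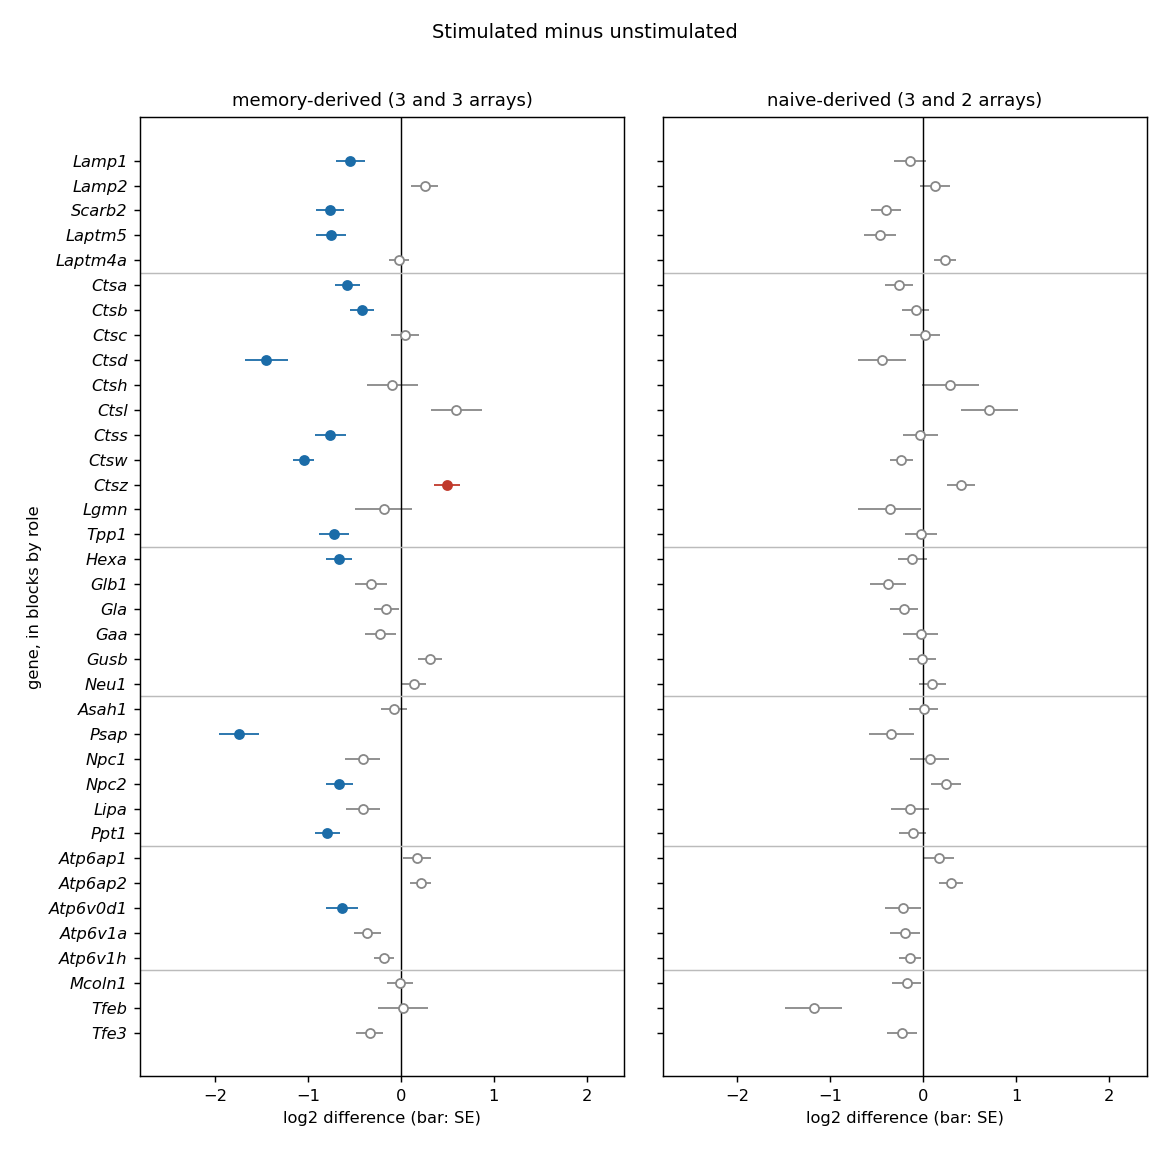
Fitted log2 difference, stimulated minus unstimulated, with its SE (bar), for each gene in memory-derived cells (left) and naive-derived cells (right). Filled points passed the test at an adjusted p below 0.05, blue lower and red higher. In memory-derived cells 14 genes lie lower and 1 higher, and in naive-derived cells 0 passed.

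The second comparison put the same question to effectors of naive origin (3 stimulated arrays, 2 unstimulated). None of the 36 genes passed in limma, as was so for nearly all genes (0.0% of those tested rose and 0.0135% fell), and the median of the 36 differences was -0.12 against 0.0072 for all genes. At an unadjusted p below 0.05 stood 6 of the 36 genes, and 1252 of all genes. In 7 of the 36 genes (Scarb2, Laptm5, Ctsw, Glb1, Psap, Atp6v1h and Tfeb) every stimulated array was lower than every unstimulated one, a pattern that 12.8% of all tested genes showed. In 4 (Laptm4a, Ctsz, Npc2 and Atp6ap2) every stimulated array was higher, against 13.6% of all genes.

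The largest of these differences was that of Tfeb, the transcription factor. It read 3.22 and 3.33 on the unstimulated arrays and 1.80, 1.78 and 2.70 on the stimulated ones, of which the lower pair lay just above the 1.54 level. Its difference was -1.18 (SE 0.304, n = 3 and 2, adjusted p = 0.296). In memory-derived cells Tfeb read 2.59, 3.06 and 3.47 without and 3.16, 2.81 and 3.22 with stimulation, with no separation. The response of Tfeb differed between origins by -1.20, which did not pass either (SE 0.408, adjusted p = 0.117). Ctsd read 6.65 and 5.92 without and 6.07, 6.02 and 5.43 with stimulation, groups that overlapped (-0.44, adjusted p = 0.69). For Psap the readings were 5.08 and 5.07 without and 4.65, 4.91 and 4.63 with stimulation (-0.35, adjusted p = 0.764). Ctsw read 7.73 and 7.75 without and 7.55, 7.50 and 7.47 with stimulation (-0.24, adjusted p = 0.647). For Psap and Ctsw every stimulated array was below every unstimulated one, by differences that did not pass, while those of Ctsd overlapped.

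**Figure D3:**
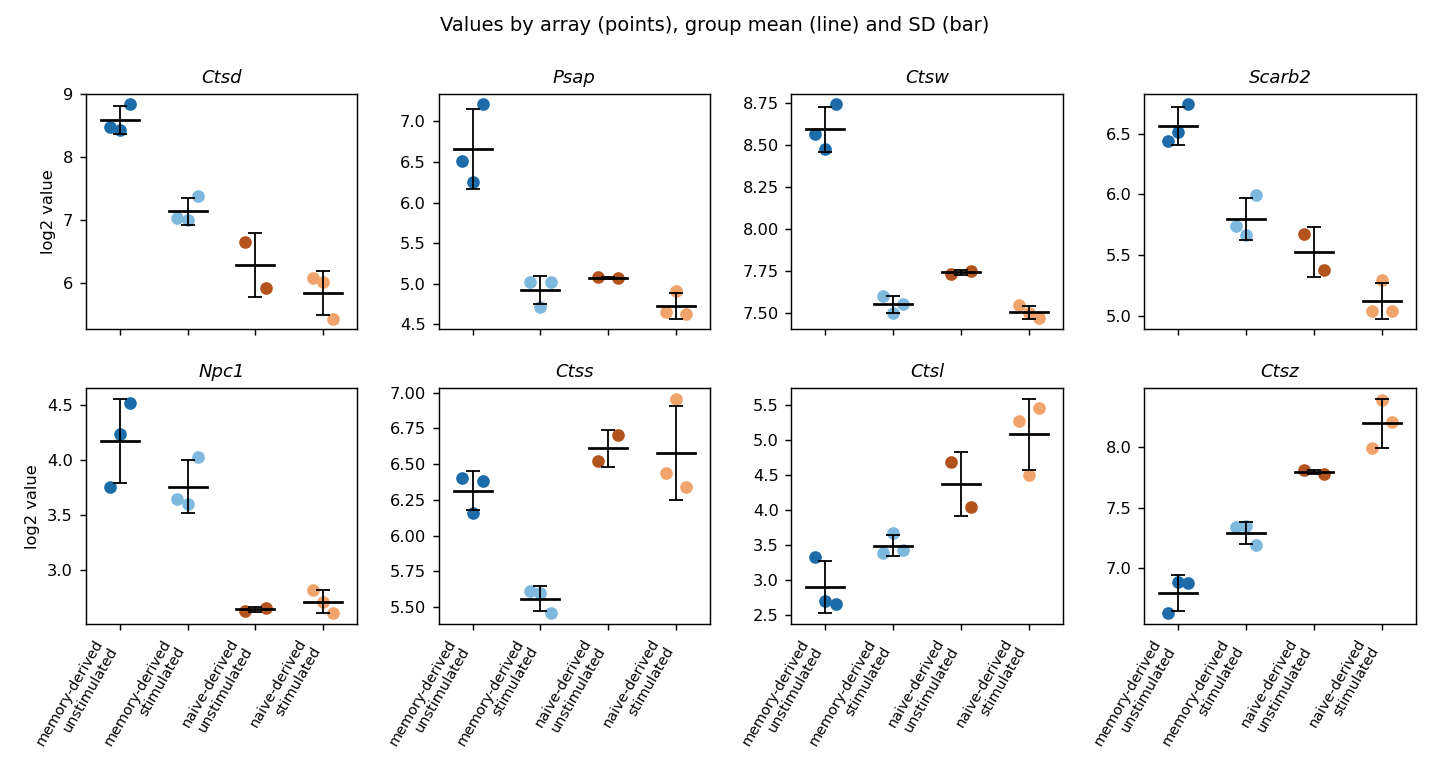
Log2 values of 8 genes on each array (points), with the group mean (line) and SD (bar), in the 4 groups with 3, 3, 2 and 3 arrays. Each panel has its own axis, which does not start at 0. Ctsd, Psap, Ctsw and Scarb2 are highest on the memory-derived unstimulated arrays, Npc1 is high on the arrays of both memory-derived groups, Ctss is low on the memory-derived stimulated arrays, and Ctsl and Ctsz are high on the naive-derived arrays.

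The third comparison asked how unstimulated naive-derived effectors differed from unstimulated memory-derived ones. It uses the same 3 memory-derived unstimulated arrays as the first comparison, so the values of both stand side by side and do not support each other. Of the 36 genes, 13 were lower and 3 higher in naive-derived cells, beside 14.9% and 10.9% of all genes tested. The median difference was -0.20 over the 36 genes and -0.0090 over all genes. The most negative difference was that of Ctsd, and the most positive were those of Ctsl and Ctsz.

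Ctsd read 6.65 and 5.92 in the 2 naive-derived cultures, against 8.44 to 8.84 in the 3 memory-derived ones. It was 4.93-fold lower (-2.30, SE 0.257, n = 2 and 3, adjusted p = 0.000328). Psap, at 5.08 and 5.07, was lower by -1.58 (SE 0.242, adjusted p = 0.00129), and Ctsw, at 7.73 and 7.75, by -0.85 (SE 0.125, adjusted p = 0.00107). For all 3 genes the naive-derived unstimulated arrays lay well below the memory-derived unstimulated ones. Tpp1 differed by -0.88 and Ctsa by -0.59, both past the test, and on a dimmer probe set of Ctsa the difference was 0.29.

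The cholesterol exporter Npc1 read 2.63 and 2.66 in naive-derived cells and 3.76, 4.24 and 4.52 in memory-derived cells, a difference of -1.53 (SE 0.212, adjusted p = 0.000798). All 6 lipid genes had negative differences and 4 passed, Ppt1 at -0.87 and Npc2 at -0.59 among them. Of the membrane proteins, Scarb2, at 5.67 and 5.38, was lower by -1.04 (SE 0.166), Laptm5 by -0.95 (SE 0.175) and Lamp1 by -0.67 (SE 0.174). Atp6v0d1 was lower by -0.82 (SE 0.191) and was the only proton pump gene of the 5 to pass. Glb1, beta-galactosidase, was lower by -0.59 (adjusted p = 0.0446), and Hexa just missed (-0.46, adjusted p = 0.0509).

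The higher genes were cathepsins and a membrane protein. Ctsl read 4.69 and 4.04 in naive-derived and 3.32, 2.71 and 2.66 in memory-derived cells, a difference of 1.47 (SE 0.304, adjusted p = 0.00571). Ctsz read 7.81 and 7.78 against 6.62, 6.89 and 6.88, higher by 1.00 (SE 0.152, adjusted p = 0.00127), with 0.99 and 1.11 on its other probe sets. In neither gene did the groups overlap. Of all 14795 genes tested, the naive-derived arrays lay apart as higher in 3610 and as lower in 4286. Lamp2 was higher by 0.50 (adjusted p = 0.0448) on the probe set used, but its 3 other probe sets gave -0.26, -0.30 and -0.10, so its direction depends on the probe set. Ctss, Ctsb and Ctsc differed by 0.30, 0.02 and 0.21 and did not pass. Among the transcription factors Tfeb differed by 0.23 and Tfe3 by -0.19.

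With only 2 naive-derived arrays, single libraries weighed here. Without naive-derived unstimulated array 2, 7 of the 13 genes still passed as lower, and Atp6v0d1 (-0.53), Lamp1 (-0.53), Ctsa (-0.38), Npc2 (-0.54), Tpp1 (-0.71) and Glb1 (-0.63) no longer passed. Without array 1 of that group, Ctsl (1.15, adjusted p = 0.0671), Lamp2 (0.29), Glb1 (-0.55) and Npc2 (-0.63) were lost, which left 1 higher and 11 lower genes. Npc2 also failed without memory-derived unstimulated array 1 (-0.54). Lamp2 and Glb1 were each lost without 9 of the 11 arrays in turn, at adjusted p up to 0.351 and 0.190, and with the replicate block as well (adjusted p = 0.0911 and 0.0659). With experiments 1 and 2 alone, 8 genes were lower. With the mean of a gene's probe sets Ppt1 was at -0.29 (adjusted p = 0.0921), Ctsa at -0.15 (adjusted p = 0.590) and Ctsl at 0.54 (adjusted p = 0.169), and none of these passed. Ctsd, Npc1, Psap, Scarb2, Laptm5, Ctsw and Ctsz passed under each of the 19 alternatives.

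**Figure D4:**
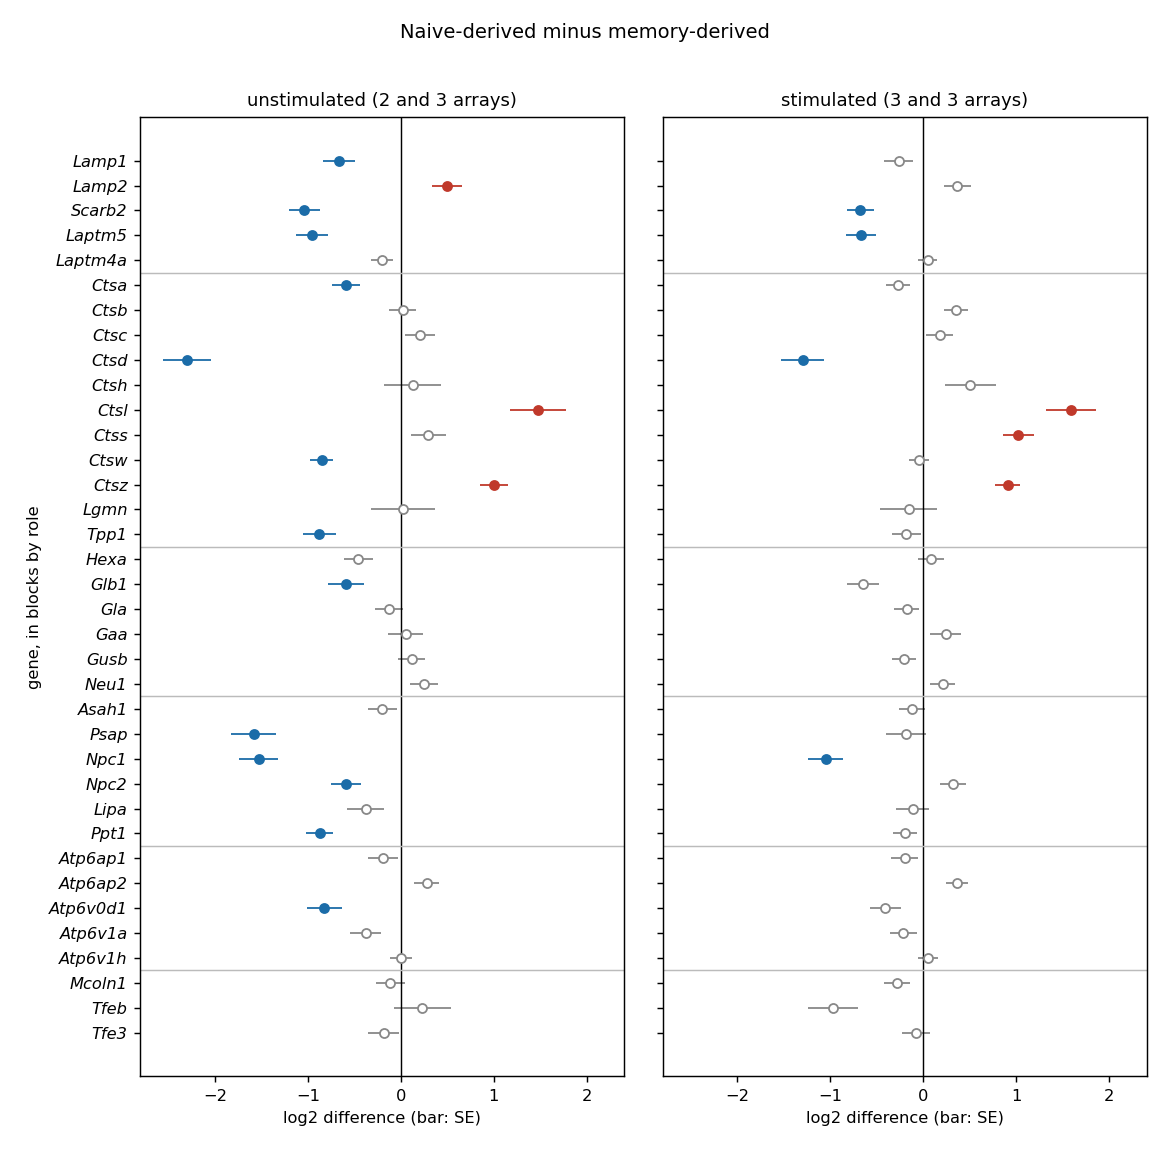
Fitted log2 difference, naive-derived minus memory-derived, with its SE (bar), for each gene in unstimulated cells (left) and stimulated cells (right). Filled points passed the test at an adjusted p below 0.05, blue lower and red higher. Ctsd, Npc1, Scarb2 and Laptm5 are lower and Ctsl and Ctsz higher in both panels.

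The fourth comparison set the stimulated naive-derived cells against the stimulated memory-derived cells, on arrays that the third comparison did not use but the first 2 did. Of the 36 genes, 4 were lower (Ctsd, Npc1, Scarb2 and Laptm5) and 3 higher (Ctsl, Ctss and Ctsz), while 2.01% of all tested genes were lower and 1.69% higher. The median difference was -0.14, and -0.013 over all genes. All 7 of these genes have been named above for their role, and in none of them did the 3 arrays of one origin overlap with the 3 of the other. The 7 had passed the test on these same arrays, so this separation adds no support. Of all 14795 genes tested, the naive-derived arrays lay apart as higher in 1684 and as lower in 2113, and of the 36 genes in 8 and 11.

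Ctsl read 5.28, 4.50 and 5.46 in naive-derived and 3.39, 3.67 and 3.43 in memory-derived cells, and was 3.00-fold higher (1.59, SE 0.272, n = 3 and 3, adjusted p = 0.00899). Ctss read 6.44, 6.96 and 6.34 against 5.61, 5.60 and 5.46, higher by 1.02 (SE 0.166, adjusted p = 0.00659). Ctsz read 7.99, 8.40 and 8.21 against 7.34, 7.35 and 7.19, higher by 0.91 (SE 0.136, adjusted p = 0.00412). Its other probe sets gave 0.43 and 0.58, which did not pass in limma (adjusted p = 0.201 and 0.101 over all probe sets fitted). On the probe sets used, these 3 cysteine cathepsins were thus higher in the stimulated cells of naive origin, while the aspartic protease was lower. Ctsd read 6.07, 6.02 and 5.43 against 7.03, 7.01 and 7.38, lower by -1.30 (SE 0.23, adjusted p = 0.0108). Npc1 read 2.82, 2.71 and 2.61 against 3.65, 3.61 and 4.04, lower by -1.05 (SE 0.19, adjusted p = 0.0117). Scarb2 read 5.04, 5.30 and 5.04 against 5.74, 5.66 and 5.996, lower by -0.68 (SE 0.148, adjusted p = 0.0297, and 0.05001 with the replicate block). Laptm5 differed by -0.67 (SE 0.157, adjusted p = 0.0403). Ctsw read 7.55, 7.50 and 7.47 against 7.60, 7.50 and 7.55, so its arrays overlapped once both had been stimulated (-0.05, adjusted p = 0.891), and Psap differed by -0.19 (adjusted p = 0.728). Tfeb, at 1.80, 1.78 and 2.70 against 3.16, 2.81 and 3.22, was below on every naive-derived array without passing (-0.97, SE 0.272, adjusted p = 0.0832). Glb1 differed by -0.64 (adjusted p = 0.0697).

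The lower calls leaned on single libraries. Without memory-derived stimulated array 3 none of the 4 passed: Ctsd differed by -1.18 (adjusted p = 0.0501), Npc1 by -0.91 (adjusted p = 0.0526), Scarb2 by -0.58 (adjusted p = 0.121) and Laptm5 by -0.69 (adjusted p = 0.105). Without array 1 or 2 of that group, Ctsd and Npc1 passed as lower and Scarb2 and Laptm5 did not. Without naive-derived stimulated array 3, 1 of the 4, Ctsd, passed, with 1 other of the 36 genes. In these 3 cases Scarb2 was at -0.71, -0.74 and -0.63 and Laptm5 at -0.64, -0.68 and -0.63, and Npc1 was at -0.997 without the naive-derived array. Scarb2 was also lost without naive-derived stimulated array 1 (-0.63), and Laptm5 was lost without 9 of the 11 arrays in turn, at -0.54 to -0.69 and adjusted p of 0.0526 to 0.137. The 3 higher genes passed without any single array. With experiments 1 and 2 alone, none of the 4 passed as lower (1 other of the 36 genes did), and 1 of the 3 passed as higher. With the mean of a gene's probe sets Ctsl was at 0.47 (adjusted p = 0.372), Laptm5 at -0.24 and Scarb2 at -0.55, and none of these 3 passed. The other probe set of Ctsl, dim and on average below the 1.54 level, gave -0.64.

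The fifth comparison, an interaction, asked whether cells of either origin responded to stimulation to a different extent. Among the 36 genes, 2 passed, Psap and Ctsw, both with a more positive response in naive-derived cells, while 1.62% of all tested genes passed in that direction and 1.09% in the other. Psap fell by 1.74 in memory-derived cells and differed by -0.35 in naive-derived cells, a difference in response of 1.39 (SE 0.324, adjusted p = 0.0497). Ctsw fell by 1.04 and differed by -0.24, a difference in response of 0.81 (SE 0.168, adjusted p = 0.0398). In both genes the arrays of the 2 origins overlapped after stimulation and lay apart before it. Npc2 just missed (0.90, SE 0.213, adjusted p = 0.0513), and so did Ppt1 (0.68, adjusted p = 0.0802). The response of Ctsd differed by 1.01 (adjusted p = 0.119) and that of Ctss by 0.72 (adjusted p = 0.119).

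Both calls depended on the setting. With the replicate block, 0 of the 36 genes passed (Psap adjusted p = 0.0965, Ctsw adjusted p = 0.0862). Both were lost without memory-derived unstimulated array 1, any memory-derived stimulated array, either naive-derived unstimulated array or any naive-derived stimulated array, at 1.29 to 1.47 for Psap and 0.78 to 0.83 for Ctsw. Without memory-derived unstimulated array 2, 4 genes passed.

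The other genes of the lysosomal system were taken from lists chosen by function. Their counts stand beside the shares of all genes: on stimulation of memory-derived cells 17.3% fell and 14.3% rose, and in unstimulated naive-derived cells 14.9% were lower and 10.9% higher. Both comparisons use the same 3 memory-derived unstimulated arrays, so 2 values of a gene with 1 direction do not support each other. Of 20 further lysosomal hydrolases tested, 13 fell and 0 rose on stimulation of memory-derived cells (median -0.64). The largest falls were those of Smpd1, acid sphingomyelinase (-1.63), Sgsh, a heparan sulfate sulfatase (-1.14), Ids, iduronate sulfatase (-1.08), and Arsa, arylsulfatase A (-1.01). In unstimulated naive-derived cells, 11 of the 20 were lower and 1 was higher than in memory-derived cells (median -0.54). Arsb, arylsulfatase B, which cuts dermatan sulfate, differed by -2.97 (SE 0.242, adjusted p = 6.91e-05), more than any of the 36 genes in this comparison. It was also lower between the stimulated groups, by -2.46 (SE 0.216, adjusted p = 0.000149). There 3 of the 20 were lower and 1 was higher, beside 2.01% and 1.69% of all genes. The higher gene was Gm2a (0.84), which lifts a ganglioside out of the membrane for its hydrolase.

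Of 11 further proton pump subunits, 4 fell and 1 rose on stimulation of memory-derived cells, with Atp6v0a1 at -0.98, Atp6v0a2 at -0.89, Atp6v1d at -0.84 and Atp6v0b at 0.43. By origin, 1 of the 11 passed without stimulation (Atp6v0e, -0.43) and 0 with it. Of 17 genes of mannose 6-phosphate sorting and transport to the lysosome, 3 rose and 4 fell on stimulation (17.6% and 23.5%, near the shares of all genes), and 3 were higher and 2 lower in unstimulated naive-derived cells. M6pr, the small receptor that sorts hydrolases, was higher in both comparisons (0.84 and 0.76), and Vps41, a subunit of the HOPS tether, was lower in both (-0.86 and -0.85).

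Genes of nutrient sensing on the lysosomal surface went both ways. Of 16 tested, 2 rose and 6 fell on stimulation of memory-derived cells: Lamtor4, Lamtor5 and Lamtor1, subunits of the Ragulator scaffold, fell by 1.54, 0.90 and 0.90 on the log2 scale, and Rragd, a Rag GTPase, rose by 1.20. In unstimulated naive-derived cells 3 were higher and 6 lower, with Lamtor4 at -1.43, Lamtor1 at -0.93, Slc38a9, an arginine sensor, at -0.86 and Rraga at 0.82. Of 6 inhibitors of cathepsins or of other proteases, Serpinb6b rose by 3.06 and Serpinb9, the inhibitor of granzyme B, by 1.89 on stimulation, and Serpinb6a fell by 0.82. In unstimulated naive-derived cells Serpinb6b was higher (1.63) and Serpinb6a and Cstb, a cystatin, were lower (-1.20 and -0.61). Of 13 autophagy genes, 3 fell and 1 rose on stimulation (23.1% and 7.69%), and 5 were lower and 1 higher in unstimulated naive-derived cells. Map1lc3b, an LC3 protein of the autophagosome membrane, was lower in both (-1.04 in each case), and its relative Gabarapl1 was higher in both (0.79 and 1.17). These values again share the memory-derived unstimulated arrays. In naive-derived cells 0 genes of these 6 lists passed on stimulation.

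**Figure D5:**
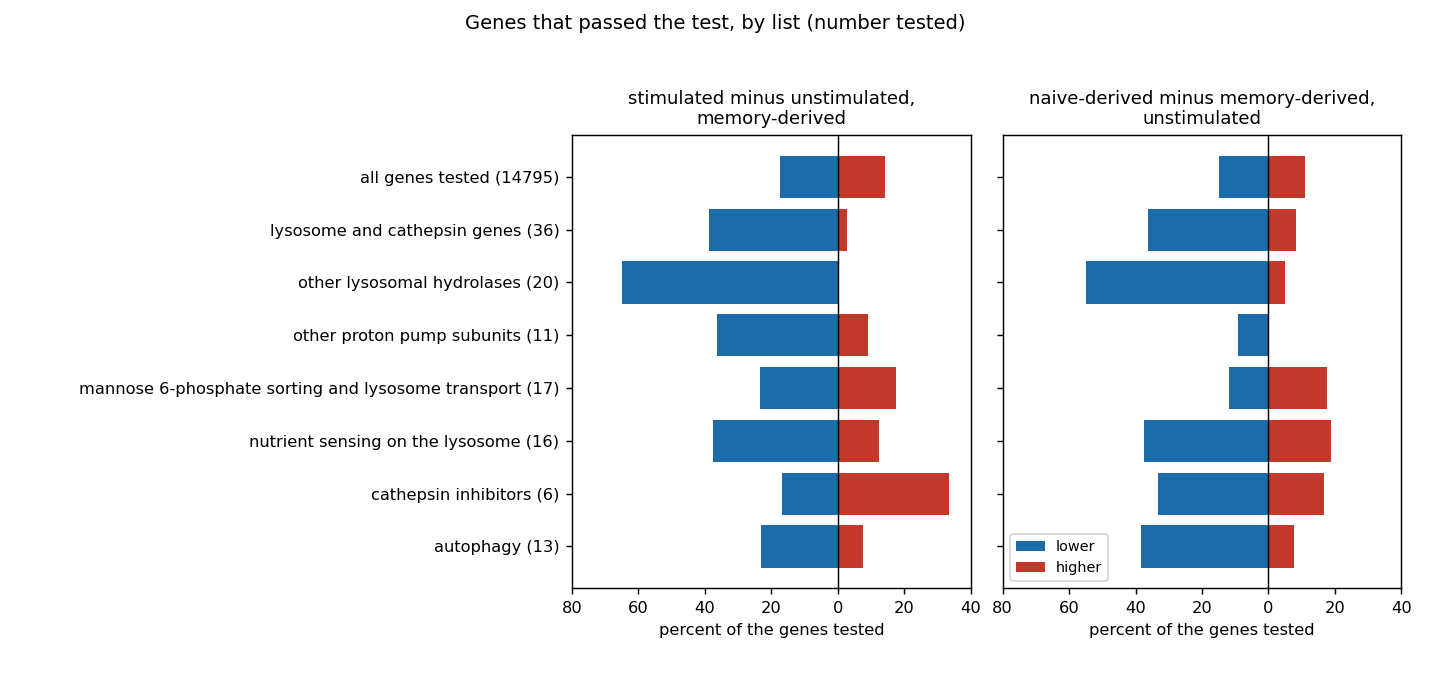
Percent of the tested genes that passed as lower (blue, to the left) or higher (red, to the right) in all genes, in the 36 lysosome and cathepsin genes and in the 6 other lists (number tested in brackets), for stimulation of memory-derived cells and for naive-derived against memory-derived unstimulated cells. The 36 genes have 38.9% and 36.1% lower, beside 17.3% and 14.9% of all genes, and the further hydrolases have 65.0% and 55.0% lower.

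Across the 4 comparisons of stimulation or origin, 19 of the 36 genes passed at least once. The share of all tested genes that did so was not computed, so this count cannot be set against a background. In a single comparison up to 17.3% of all genes were lower and up to 14.3% higher. The 17 that passed in none, each on the probe set used, were Laptm4a, Ctsc, Ctsh, Lgmn, Gla, Gaa, Gusb, Neu1, Asah1, Lipa, Atp6ap1, Atp6ap2, Atp6v1a, Atp6v1h, Mcoln1, Tfeb and Tfe3. On the probe set used, Ctsc, whose product activates granzymes, lay between 7.28 and 7.90 on the 11 arrays, and its differences in these 4 comparisons ran from 0.02 to 0.21. With 2 or 3 arrays a group, a p-value that misses the threshold does not show that these levels were equal.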

How the data were processed

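RNA of 11 cultures was read on Affymetrix arrays. Per the submitters' processing notes the authors used Affymetrix Expression Console, and the summarization method is not given in the sources used here. The deposited values were taken to be log10, an inference from the hybridization controls, which stepped by 0.944 and 1.02 per unit of log10 concentration at their lower steps and by 1.77 at the last, so every fold rests on it. The deposited arrays had been quantile normalized, since all 11 hold the same sorted values. They carry no measure of depth, and precision is limited by how few arrays there are.

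Values were multiplied by 3.32 to give log2. Of 45101 probe sets, 64 were controls, 34945 had 1 gene symbol in the platform annotation, 932 had several and 9160 had none listed. Of those with 1 symbol, 34741 matched the gene table and 0 symbols changed. A linear model with a mean per group, over the 11 arrays together, was fitted in limma 3.58.1 (lmFit and eBayes, R 4.3.3, 7 residual and 3.86 prior degrees of freedom) and was tested on simulated data. Tests were two-sided. Figures used matplotlib 3.10.9 in Python 3.11.15.

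Replicate numbers are, per the labels, experiment numbers and so pair arrays. Deviations from group means correlated at -0.0716 to 0.112 within an experiment (15 pairs, of which the 5 of the same origin stood at 0.047 to 0.112) and at -0.131 to 0.112 between experiments (30 pairs). Fits with this replicate block, or with origin by experiment as a random block (correlation 0.122), were alternatives. The others were no filter, a stricter filter (60th percentile), centring on hybridization controls, the mean of a gene's probe sets, a trended robust variance, experiments 1 and 2 only, and leaving out each array.

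The genes and lists were chosen with earlier results of these data known. Values on every array are printed for genes that passed with a difference of at least 1 in a comparison of stimulation or origin or passed the interaction, and for Ctsz, Tfeb and a few others picked after their values were seen. Other lists name at most 4 genes a comparison. Of the remaining marker lists, with summed log2 levels over all arrays: 6 dendritic cell markers summed to 12.5 to 15.6, 6 B cell markers to 8.24 to 11.0, 3 markers of CD4 T or NK cells to 3.37 to 4.23, 6 of fibroblasts and endothelium to 9.89 to 11.7 and 2 erythroid markers to 1.63 to 3.26. Itgax, of the dendritic cell list, was lower by origin (-1.77 and -1.23). It was also lower on stimulation of memory-derived cells (-0.69), at 5.99 to 6.65 without and 5.41 to 5.72 with stimulation. Of the 5 dendritic cell markers tested, Itgax alone passed in each of these comparisons, and 3 of the 5 differences were positive in each. Their median was 0.17 by origin without stimulation, 0.23 by origin with stimulation and 0.22 on stimulation of memory-derived cells. Beside these stood 14.9%, 2.01% and 17.3% of all genes that were lower. The part of these markers in the results was not tested.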

Additional observations from a re-analysis of the deposited data

Results flagged for a closer look

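By the interaction test in limma, 2 of the 36 genes and 5 genes of the other lists passed for a response that differed between origins. Of all 14795 tested genes, 1.62% passed in the positive and 1.09% in the negative direction. With the replicate block these were 15 and 11 genes. The 5 came from lists of 20 (hydrolases), 16 (nutrient sensing, Lamtor4 and Rragd), 13 (autophagy) and 6 (inhibitors of cathepsins or of other proteases) tested genes. How these 5 held under the alternatives is not shown. Values are the log2 response in naive-derived cells minus that in memory-derived cells. For Psap the difference was 1.39 (SE 0.324, adjusted p = 0.0497) and for Ctsw 0.81 (SE 0.168, adjusted p = 0.0398). The sulfatase Arsa differed by 0.96 (SE 0.216, adjusted p = 0.044), the Ragulator subunit Lamtor4 by 1.20 (SE 0.218, adjusted p = 0.0268) and the LC3 gene Map1lc3b by 0.91 (SE 0.198, adjusted p = 0.0431). In the other direction stood the Rag GTPase Rragd at -1.08 (SE 0.184, adjusted p = 0.0244) and the serpin Serpinb6b at -2.91 (SE 0.493, adjusted p = 0.0242). No group had enough arrays for a test of single outlying arrays.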

How the results depend on the processing

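Of 40 pairs of gene and comparison that passed, each under 19 alternatives, 635 of 760 values kept their direction and passed, 124 kept their direction and did not pass, and 1 reversed: Lamp2 between unstimulated groups was -0.0393 with the mean of its probe sets. In 14 pairs the gene passed under every alternative. Genes lower on stimulation of memory-derived cells numbered 11 to 15 without single arrays and 7 with experiments 1 and 2, and genes higher 0 to 1 without single arrays and 0 with control centring or experiments 1 and 2. Between unstimulated origins the lower genes numbered 7 to 13 without single arrays and 8 with experiments 1 and 2, and the higher genes 1 to 3 without single arrays and 1 with the mean of probe sets. Between stimulated origins the lower genes numbered 0 to 4 without single arrays, 2 with the mean of probe sets and 1 with experiments 1 and 2, and the higher genes 3 throughout single arrays and 1 with experiments 1 and 2. In the interaction 2 genes became 0 to 4 without single arrays, 0 with the replicate block, no filter, control centring or experiments 1 and 2, 4 with the stricter filter or the trended robust variance, and 1 with the mean of probe sets. The replicate block ended the calls of Glb1 and Lamp2 between unstimulated origins, Scarb2 between stimulated origins and Psap and Ctsw in the interaction, and no other call of the 40. The cause of these changes was not tested. On stimulation of naive-derived cells the count was 0 in each direction under all alternatives. Control centring shifted the median of all genes between stimulated origins by -0.104, and the share of called genes that were higher went from 45.6% to 31.1% there, from 42.2% to 32.5% between unstimulated origins and from 59.6% to 49.0% in the interaction. Values near the low end may be compressed, which was not tested. That limits what can be read for Ctsh, Lgmn and Tfeb in naive-derived stimulated cells.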
